A study of Zea mays with 6 samples.

Results

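LEAFY homologs are the maize counterparts of the floral regulator LEAFY of Arabidopsis and FLORICAULA of snapdragon. They were taken as the genes whose description in the count table holds the Floricaula/LEAFY protein domain (Pfam PF01698) or either name. Of 42508 genes listed, 2 met this rule, Zm00004b006425 and Zm00004b040210, and both passed the low-count filter that left 22741 genes for testing. Both have the rice protein FL, the LEAFY counterpart of rice, as their best Swiss-Prot match. Both also carry the DNA-binding domain of that family and are assigned to the LFY family in the table. Zm00004b006425 lies on chromosome 2 from 12724130 to 12727195 on the minus strand, and Zm00004b040210 on chromosome 10 from 139899734 to 139902691 on the plus strand. The table names no genome build for these positions, and neither gene is on chromosome 5.

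LEAFY is a transcription factor found only in plants, where it commits a meristem to forming a flower. In Arabidopsis it acts with the F-box protein UNUSUAL FLORAL ORGANS and switches on MADS-box genes of floral organ identity, while the TERMINAL FLOWER 1 protein keeps it out of the inflorescence tip. Maize is known to hold a duplicated LEAFY pair, zfl1 and zfl2, which act in floral identity and in how lateral organs are arranged on the inflorescence, and zfl2 has been associated with kernel row number. Which of the identifiers above is zfl1 or zfl2 is not stated in the files.

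The compared lines are nearly isogenic recombinant inbred lines from a teosinte and maize cross. At qKRN5.04b, which lies on chromosome 5 and affects kernel row number, A12 has the teosinte segment and B46 the maize segment. Plants of both lines were grown under standard conditions and sampled as immature ears of 1.5 to 2.0 mm at leaf stages V6 to V9, when the inflorescence meristem forms spikelet pair meristems. Each line has 3 libraries of polyadenylated RNA, each from a pool of at least 50 plants, in 1 stated batch. Each genotype is represented by 1 line, so the qKRN5.04b segment cannot be told apart from any other difference between these lines.

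Total gene counts were 14625831 to 15675012 in the A12 libraries and 15145371 to 15432882 in the B46 libraries. Of the 6 genes listed as ear meristem markers, 4 were tested and had reads in every library. They are KNOTTED 1 (KN1), which maintains meristems, THICK TASSEL DWARF 1 (TD1) and FASCIATED EAR 2 (FEA2), receptors that restrict meristem size, and the RAMOSA 3 (RA3) match with most reads, RA3 being a gene that limits ear branching. The other 2 RA3 matches had at most 14 reads in any library. A12 replicate 1 stood apart from the other libraries. Its summed level of floral organ MADS-box markers was 313 FPKM, against 40.4 and 113 FPKM in A12 replicates 2 and 3 and 0.457 to 1.81 FPKM in B46. Of these 8 floral markers, 7 were tested and all 7 rose in A12, and 1 had 0 reads throughout. The 7 had at most 13 reads in any B46 library and passed the low-count filter through A12, so none could have been called lower. In A12 replicate 1 the summed level of 62 green leaf markers was 753 FPKM, against 145 and 312 FPKM in A12 replicates 2 and 3 and 198 to 300 FPKM in B46. Of these, 41 were tested and 1 rose, and 9 had 0 reads throughout. Over all genes tested, 4.61% rose. Values of the LEAFY homologs are therefore given with and without A12 replicate 1.

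The first comparison asks whether the LEAFY homologs differ between ears carrying the teosinte and the maize segment. Mean levels of both were lower in A12, but neither passed the threshold of an adjusted p under 0.05. Of all genes tested, 9.86% passed, 5.25% as lower and 4.61% as higher in A12. In bulk tissue, fewer cells of a type and less RNA per cell cannot be told apart.

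Zm00004b006425 had 699, 1309 and 1214 reads in A12 replicates 1, 2 and 3, against 2240, 2137 and 1740 reads in B46. Per gene length, this was 27.6, 52.6 and 45.3 FPKM in A12 and 84.7, 78.7 and 64.9 FPKM in B46, so that every A12 library lay below every B46 library. Such an order was seen in 17.2% of all genes tested, and libraries of the lines did not overlap in either direction in 33.4%. The mean level was 41.9 ± 12.9 FPKM in A12 and 76.1 ± 10.2 FPKM in B46 (SD, n = 3 each). The log2 fold change was -0.86 (SE 0.23), or 0.55 times the B46 level with a 95% interval of 0.378 to 0.801. The edgeR unadjusted p was 0.00665, a threshold of 0.05 being passed by 27.2% of genes, and the adjusted p was 0.058. Without A12 replicate 1 the log2 fold change was -0.63 (SE 0.13) and passed (edgeR adjusted p = 0.0166). With that library left out, 19.3% of all genes passed. It also passed without A12 replicate 2, at -1.06 (edgeR adjusted p = 0.035), and with DESeq2 in place of edgeR, at -0.86 (DESeq2 adjusted p = 0.00373). DESeq2 called 13.6% of the genes to which it gave an adjusted p.

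Zm00004b040210 had 566, 1431 and 1339 reads in A12 replicates 1, 2 and 3, against 2189, 2168 and 1496 reads in B46. In FPKM its levels were 26.9, 69.3 and 60.2 in A12 and 99.6, 96.1 and 67.1 in B46. The lines overlapped, since A12 replicate 2 lay above B46 replicate 3. The mean level was 52.1 ± 22.3 FPKM in A12 and 87.6 ± 17.8 FPKM in B46 (SD, n = 3 each). The log2 fold change was -0.75 (SE 0.33), with a 95% interval from -1.53 to 0.03 and an edgeR adjusted p of 0.198. Without A12 replicate 1 the log2 fold change was -0.43 (SE 0.17, edgeR adjusted p = 0.119). It passed in 0 of the 14 alternative analyses, and the unadjusted edgeR p with all libraries was 0.0566.

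**Figure D1:**
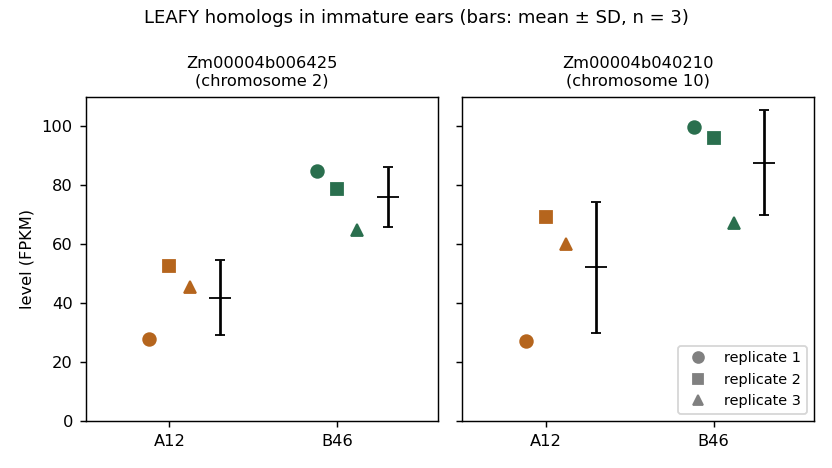
Level of each LEAFY homolog in FPKM by library (vertical axis), with A12 left of B46, 1 point per library and bars for the mean ± SD of 3 libraries. For Zm00004b006425 the A12 libraries lie between 27.6 and 52.6 FPKM, all below the B46 libraries; for Zm00004b040210 A12 replicate 2 at 69.3 FPKM lies above B46 replicate 3 at 67.1 FPKM.

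The libraries of a line differed more in these genes than in most. In A12 the SD of log2 CPM (reads scaled for library size) was 0.49 for Zm00004b006425 and 0.74 for Zm00004b040210, where the median over all tested genes was 0.21. In B46 the SDs were 0.20 and 0.31 in that order, with a median over all genes of 0.15. In both copies A12 replicate 1 was the lowest of all libraries and B46 replicate 3 the lowest of its line. Both copies are abundant transcripts of the young ear, with mean FPKM at or above those of 92.4% of tested genes for Zm00004b006425 and 94% for Zm00004b040210.

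Across the alternatives the direction of both copies stayed below 0. For Zm00004b006425 the log2 fold change was between -1.06 and -0.63 over 14 alternatives, of which 5 passed the threshold, and adjusted p-values ran from 0.00373 to 0.192. For Zm00004b040210 it was between -1.01 and -0.43, and adjusted p-values ran from 0.0906 to 0.42. Across all tested genes the median log2 fold change was 0.01.

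**Figure D2:**
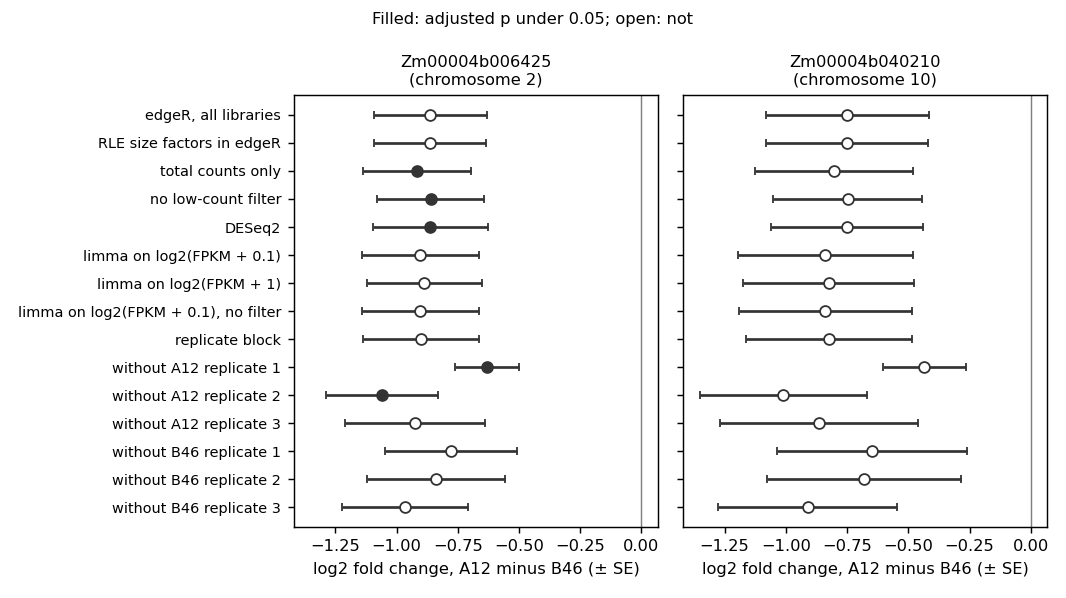
Log2 fold change (A12 minus B46, horizontal axis, bars ± SE) of each LEAFY homolog under each analysis (rows), filled where the adjusted p was under 0.05. All values lie below 0; the 5 filled points all belong to Zm00004b006425, and without A12 replicate 1 both copies come closer to 0, at -0.63 and -0.43.

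The next comparison asks whether the copies differ from each other. The ratio of Zm00004b006425 to Zm00004b040210 in FPKM was 1.03, 0.76 and 0.753 in A12 replicates 1, 2 and 3, and 0.85, 0.819 and 0.966 in B46. Thus Zm00004b040210 was the higher copy per length in every library except A12 replicate 1. The ratio averaged 0.846 ± 0.156 in A12 and 0.878 ± 0.0776 in B46 (SD, n = 3 each), and the ranges overlapped. The log2 ratio differed by -0.07 between the lines (exact permutation test over libraries, two-sided, p = 0.6). With 3 libraries against 3 the smallest p this test can give is 0.1, so it could not have passed 0.05. Reads of similar copies can be assigned to either of them, which the sum of both avoids in part. Summed over the copies, the level was 54.6, 122 and 105 FPKM in A12 and 184, 175 and 132 FPKM in B46, without overlap. Among single genes tested, the lines did not overlap in CPM for 33.4%, and 17.2% had every A12 library below every B46 library. The mean log2 difference was -0.87 (exact permutation test, two-sided, p = 0.1, the smallest possible), and -0.52 without A12 replicate 1.

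The levels were then set against the meristem markers of the same library, a comparison added after the data had been seen. KN1 had 42.1, 79.8 and 66.1 FPKM in A12 replicates 1, 2 and 3, and 81.1, 76.5 and 64.9 FPKM in B46. KN1 was thus also lowest in A12 replicate 1, and its lines overlapped (log2 fold change -0.24 with an SE of 0.23, edgeR adjusted p = 0.535).

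Relative to KN1, Zm00004b006425 was nearly constant within each line. Its FPKM was 0.657, 0.659 and 0.686 times that of KN1 in A12, and 1.04, 1.03 and 1 times that of KN1 in B46. The mean ratio was 0.667 ± 0.016 in A12 and 1.02 ± 0.0226 in B46 (SD, n = 3 each), a log2 difference of -0.62 that lay between -0.64 and -0.60 when any 1 library was left out. The exact permutation p was 0.1, the smallest possible (two-sided, or 0.114 after Benjamini-Hochberg adjustment over 8 such ratios). All A12 libraries lay below all B46 libraries for 3.95% of 22546 genes set against KN1 in this way, and the lines did not overlap for 21.5%. The size of the ratio depends on the gene lengths listed in the table, but its difference between the lines does not. The pooled within-line SD of the log2 ratio was 0.03 for Zm00004b006425, where the median over those genes was 0.40, and 3 of them, itself included, had an SD as small.

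Zm00004b040210 varied more relative to KN1. Its ratio was 0.641, 0.867 and 0.911 in A12 replicates 1, 2 and 3, and 1.23, 1.26 and 1.04 in B46, again without overlap. The log2 difference was -0.55, or -0.40 without A12 replicate 1 (exact permutation p = 0.1 with all libraries).

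Against TD1 the lines did not overlap for either copy, with log2 differences of -0.53 for Zm00004b006425 and -0.46 for Zm00004b040210 (exact permutation p = 0.1 for each). Over all genes set against TD1, 11% did not overlap, 2.51% with every A12 library below every B46 library. Without B46 replicate 3 these were -0.35 and -0.35, and without A12 replicate 1 that of Zm00004b040210 was -0.27. Against FEA2 the differences were -0.71 for Zm00004b006425 (exact permutation p = 0.1) and -0.65 for Zm00004b040210, whose lines overlapped (exact permutation p = 0.2). Of all genes set against FEA2, 40.3% did not overlap, 8.8% with A12 below B46. Without A12 replicate 1 the differences over FEA2 were -0.47 and -0.26. Against RA3 the ratios of both copies were higher in A12, by 1.59 and 1.65 on the log2 scale (exact permutation p = 0.1 for each). Over all genes set against RA3, 85.9% did not overlap, and 85.8% had every A12 library above every B46 library. RA3 itself fell, with 136, 535 and 424 reads in A12 replicates 1, 2 and 3 and 2768, 2490 and 908 in B46 (by 2.43 on the log2 scale, SE 0.56, with an edgeR adjusted p of 0.039). That call was lost in 6 of 14 alternatives, with an adjusted p of up to 0.143.

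**Figure D3:**
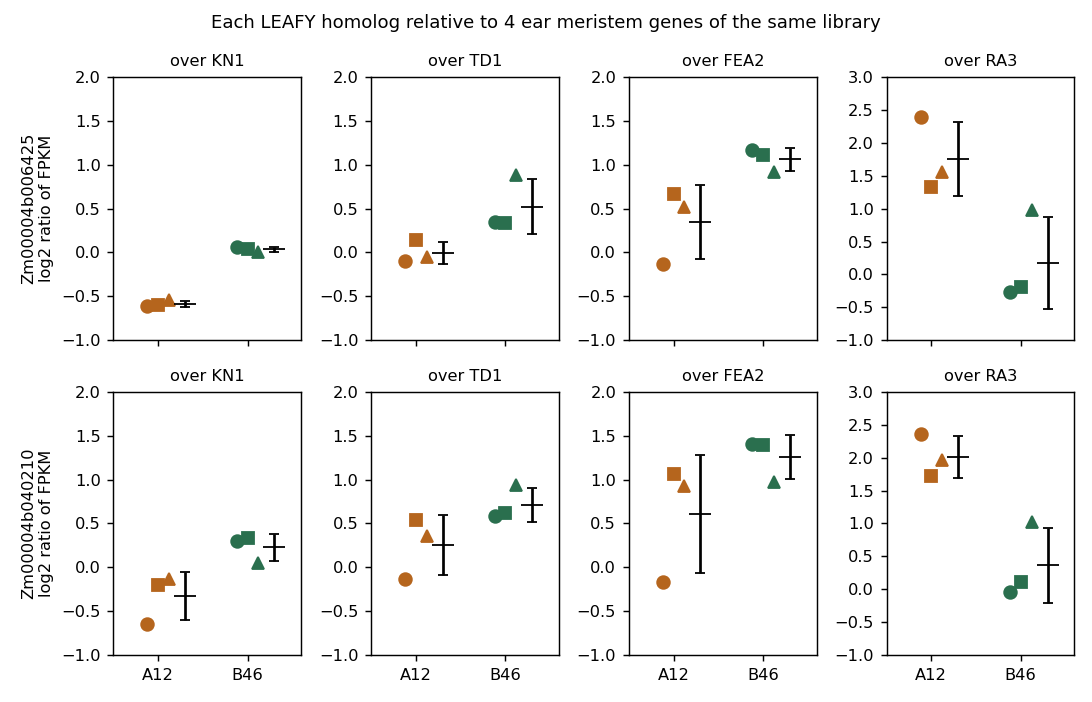
Log2 ratio of the FPKM of each LEAFY homolog (rows) to that of KN1, TD1, FEA2 and RA3 (columns, left to right) in the same library, with A12 left of B46; points are libraries (circle, square and triangle for replicates 1, 2 and 3) and bars the mean ± SD. The RA3 panels have a wider axis. Points of Zm00004b006425 over KN1 have an SD of 0.03 on the log2 scale in each line, with a difference of -0.62 between the lines.

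The genes whose library profile was most like that of a copy were sought by the mean absolute difference of log2 CPM, each gene centred on its own mean, over 6 libraries and 14109 described genes of at least 5 CPM. For Zm00004b006425 the nearest was Zm00004b003121, whose best match is rice SPL14, an SBP-box factor that shapes panicle branching in rice. It had 460, 847 and 756 reads in A12 and 1525, 1449 and 1207 in B46, at a distance of 0.0449 log2 units, where the median gene stood at 0.488. This gene fell, with a log2 fold change of -0.96 (SE 0.22) and an edgeR adjusted p of 0.039. The call was lost in 6 of 14 alternatives, among them those without A12 replicate 3 or without any 1 of the B46 replicates, with an adjusted p of up to 0.146. The search used the line difference too, so a fold change near that of Zm00004b006425 was fixed by the choice and is no separate result. The order of the 6 libraries in Zm00004b006425 was shared by 282 other tested genes. Next nearest to Zm00004b006425 were genes matching the oxysterol-binding protein ORP2A (Zm00004b020856, distance 0.0533) and Myb-related protein 2 (Zm00004b001400, distance 0.0691), both of Arabidopsis.

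For Zm00004b040210 the nearest genes matched Arabidopsis PGR (Zm00004b009673, distance 0.0829), rice SPL7 (Zm00004b040160, another SBP-box factor, distance 0.0845) and rice heat stress factor B-4b (Zm00004b037445, distance 0.086). The other LEAFY homolog stood at a distance of 0.144, which placed Zm00004b006425 at rank 14 for Zm00004b040210, and Zm00004b040210 at rank 53 for Zm00004b006425. All genes in these lists share the same 6 libraries, so A12 replicate 1 weighs on each distance.

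**Figure D4:**
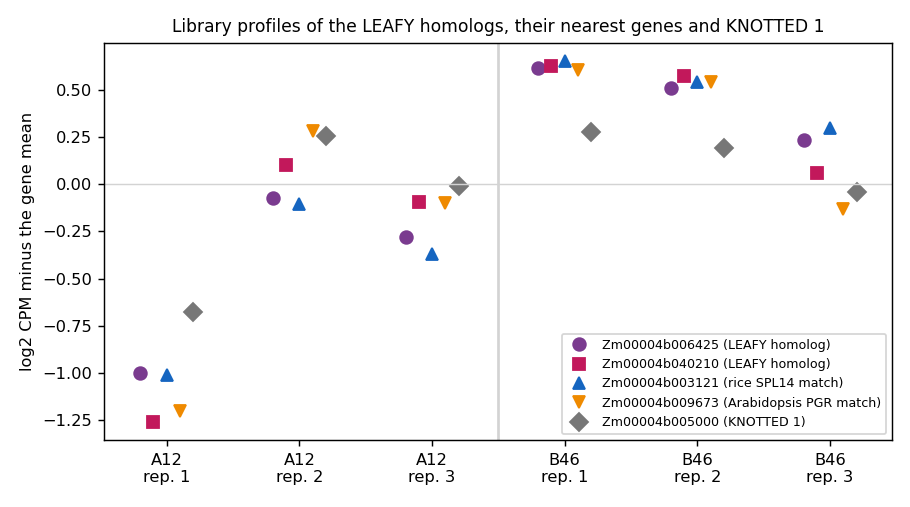
Log2 CPM minus the gene's own mean (vertical axis) in each library (A12 left, B46 right) for the LEAFY homologs, the nearest gene to each and KN1. All 5 genes are lowest in A12 replicate 1, and Zm00004b003121 stays close to Zm00004b006425, at a mean distance of 0.0449.

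The last comparison sets the LEAFY homologs beside the partners, upstream regulators and targets named for LEAFY in other plants. Of 59 genes listed by description, 42 were tested, 20 rose and 3 fell, with a median log2 fold change of 0.97 against 0.01 over all genes. Over all genes tested, 4.61% rose and 5.25% fell. Since floral MADS-box genes were known to differ in these libraries when the list was drawn up, this count is no independent evidence of a direction. Without A12 replicate 1, 26 were called, among them all 23, where 19.3% of all genes were called. Without A12 replicate 3, 9 were called, beside 1.73% of all genes. Without B46 replicate 1 the number was 12 (3.07% of all genes), without B46 replicate 2 it was 9 (1.86%) and without B46 replicate 3 it was 13 (6.09%). Of the 23 calls, 7 held in all 14 alternatives, and the highest adjusted p of the other 16 lay between 0.0505 and 0.143.

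The partner class holds genes matching ABERRANT PANICLE ORGANIZATION 1 (APO1), the rice counterpart of UNUSUAL FLORAL ORGANS, and neither was called. Zm00004b029414 had 39, 182 and 139 reads in A12 and 5, 15 and 67 in B46 (log2 fold change 2.11, SE 0.87, edgeR adjusted p = 0.168, DESeq2 adjusted p = 0.0488). Zm00004b033183 was barely expressed, with 0, 10 and 5 reads in A12 and 14, 8 and 18 in B46. Unlike the LEAFY homologs, Zm00004b029414 had a higher mean in A12.

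Upstream, among florigen (FT) genes, their bZIP partner FD and the antagonists of the CENTRORADIALIS and TERMINAL FLOWER 1 type, 2 of 11 tested genes rose and 3 fell. A gene matching bZIP factor 27, an FD paralog of Arabidopsis (Zm00004b037698), fell by 3.30 on the log2 scale (SE of 0.45, edgeR adjusted p = 0.00707, 0.0505 without A12 replicate 3). Genes matching the CEN-like proteins of tobacco, which belong to the antagonist type, went both ways. Zm00004b021735 fell to 7, 0 and 1 reads in A12, against 117, 148 and 488 in B46 (edgeR adjusted p = 0.00926, 0.064 without A12 replicate 3). Zm00004b039473 also fell (by 2.85 on the log2 scale, SE 0.56, with an edgeR adjusted p of 0.0238, and 0.115 without A12 replicate 3). Zm00004b007553 rose to 232, 27 and 73 reads in A12, against 0, 2 and 3 in B46 (edgeR adjusted p = 0.0174, up to 0.0943 among the alternatives).

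Among target classes, the AP1 and FRUITFULL type (class A) had 0 of 6 tested genes called by edgeR. By unadjusted edgeR p, 2 of them were under 0.05, as were 27.2% of all genes tested, and they went in opposite directions. These were Zm00004b005152 (MADS14 match, log2 fold change -0.43, SE 0.11, adjusted p = 0.0559) and Zm00004b034685 (MADS15 match, log2 fold change 0.49, SE 0.20, adjusted p = 0.169). DESeq2 called the first of these (adjusted p = 0.0119). Without A12 replicate 1, where 19.3% of all genes were called, edgeR called both and also Zm00004b037263 (MADS18 match, log2 fold change -0.32, adjusted p = 0.0338). Of the 19 tested genes of floral organ classes B to E and the AGL6 class, 16 rose and 0 fell. Most of these 16 had few or no reads in B46 and passed the low-count filter only through their A12 reads. Such genes could not have been called lower, so the absence of falls was in part fixed by the filter. Class B, which specifies petals and stamens in Arabidopsis, rose in all 4 tested genes, among them Zm00004b029254 (MADS16 match), with 1073, 325 and 610 reads in A12 and 5, 13 and 8 in B46. The others in the class were matches of MADS2 (Zm00004b018236, log2 fold change 1.44, SE 0.20, and Zm00004b026164, 7.07, SE 1.21) and of MADS4 (Zm00004b026163, 6.88, SE 1.45). In class C and D, 4 of 5 rose: matches of MADS58 (Zm00004b030241, with 0 reads in every B46 library, at least 80.8-fold higher against a floor of 3 counts per library, or at least 37.2-fold without A12 replicate 1), MADS3 (Zm00004b025115, log2 fold change 3.95, SE 0.75, and Zm00004b015751, with 136, 16 and 53 reads in A12 and 1, 0 and 1 in B46) and MADS13 (Zm00004b038312, 6.67, SE 1.47). In class E, 6 of 8 rose, those of lowest adjusted p matching MADS5 (Zm00004b031849, log2 fold change 3.50, SE 0.36), MADS1 (Zm00004b034170 and Zm00004b000789) and MADS7 (Zm00004b003251). All B46 reads of these last 3 genes came from replicate 2, so only counts are given. Zm00004b034170 had 1804, 376 and 885 reads in A12 and 0, 14 and 0 in B46. Zm00004b000789 had 2348, 408 and 1005 reads in A12 and 0, 18 and 0 in B46. Zm00004b003251 had 2162, 245 and 726 reads in A12 and 0, 9 and 0 in B46. Both MADS6 matches of the AGL6 class rose, Zm00004b014719 with 769, 414 and 609 reads in A12 and 0, 8 and 0 in B46, and Zm00004b022334 with 373, 140 and 252 reads in A12 and 1, 0 and 0 in B46. Without A12 replicate 1 the log2 fold changes of class B to D genes with few B46 reads were smaller, for example 5.75 for Zm00004b026164, 3.11 for Zm00004b025115 and 5.21 for Zm00004b038312. Zm00004b026163 had 372, 14 and 107 reads in A12 and 0, 3 and 1 in B46. Zm00004b038312 had 466, 10 and 145 reads in A12 and 2, 3 and 1 in B46. With limma on log2(FPKM + 1) they stood at 2.56 and 2.69 in that order (limma adjusted p = 0.0986 and 0.119). The calls of Zm00004b029254, Zm00004b031849, Zm00004b034170, Zm00004b000789 and both MADS6 matches held in all 14 alternatives, and those of the other class B to E genes named here were lost in 1 to 7 of them. Of 4 genes matching MYB17, a target of LEAFY in Arabidopsis, Zm00004b014523 rose by 1.09 on the log2 scale, with an SE of 0.18 (edgeR adjusted p = 0.0136, lost in 2 of 14 alternatives). Zm00004b039958 stood at 1.22 on that scale, with an SE of 0.28 (edgeR adjusted p = 0.0355), and its call was lost in 8 of 14 alternatives, with an adjusted p of up to 0.143. The other 2 were not called.

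LEAFY homologs thus had lower means in A12 in libraries where class B to E genes were higher. Most of the called class B to E genes had few or no B46 reads and could only have been called higher. Within A12, the library with the fewest LEAFY reads, replicate 1, had the most floral organ and green leaf marker signal given above. The 7 tested floral organ markers are themselves genes of classes B to E, so their sums and the class counts are not separate observations. The part of floral organ or leaf tissue in the LEAFY values was not tested. Within B46, where floral organ markers summed to at most 1.81 FPKM, replicate 3 had the lowest level of both LEAFY homologs and the most green leaf marker signal, 300 FPKM, and KN1, TD1, FEA2 and RA3 were also at their lowest B46 level there. A12 replicate 2 had the least green leaf marker signal of all libraries, 145 FPKM, but its floral organ markers summed to 40.4 FPKM, above every B46 library. In A12 replicate 2, Zm00004b006425 was at 52.6 FPKM, below every B46 library, and Zm00004b040210 at 69.3 FPKM, above B46 replicate 3 at 67.1 FPKM.

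**Figure D5:**
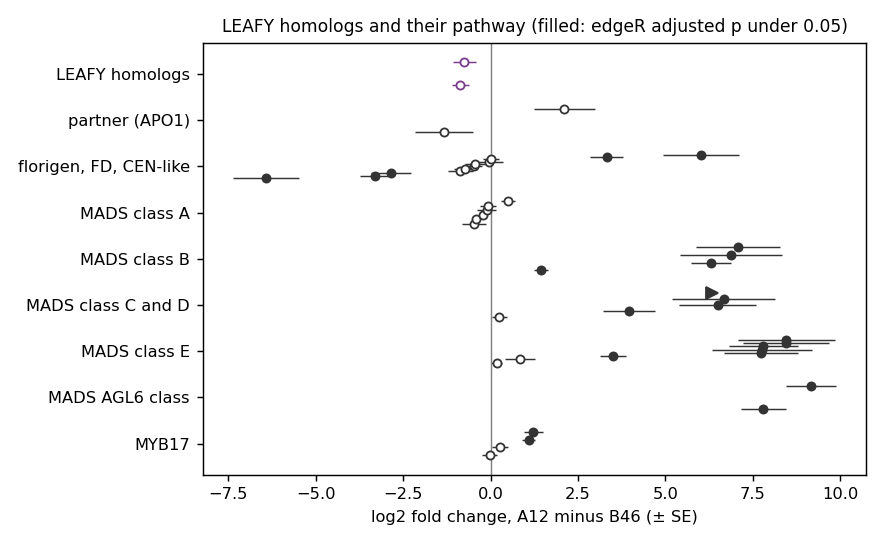
Log2 fold change (A12 minus B46, horizontal axis, bars ± SE) of the LEAFY homologs (top row) and of each tested gene of their pathway by class (rows), filled where the edgeR adjusted p was under 0.05. The right-pointing triangle marks MADS58, drawn at its lower bound of 80.8-fold. The LEAFY homologs are open points at -0.86 and -0.75, while 16 of 19 genes of classes B to E and AGL6 are filled and to the right of 0. Most of these 16 had few or no B46 reads and could only have been called higher.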

How the data were processed

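RNA of 6 libraries, 3 of A12 and 3 of B46, was grouped and numbered by the sample titles. Whole-number counts per gene were deposited by the authors, with a second table of FPKM (scaled by gene length and library size) for these genes. Per the submitters' processing notes, HISAT2 2.0.5 and DESeq2 1.20.0 were used. Read counter, genome build and use of strand: not given in the sources used here. It is therefore unknown whether reads of similar copies, or of overlapping and antisense genes, were kept apart. The reference gene table (RefSeq, B73 NAM-5.0) shared 0 identifiers with the count table.

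Counts were filtered with edgeR's default, scaled by TMM and tested two-sided with the quasi-likelihood test (edgeR 4.0.16, R 4.3.3), with Benjamini-Hochberg adjustment over 22741 genes. Alternatives were other scaling, no filter, DESeq2 1.42.0, limma 3.58.1 on log2(FPKM + 0.1) and log2(FPKM + 1), the replicate block and leaving out each library. Values per library were compared by exact permutation. The procedure was also run on simulated counts. In these the spread followed the mean level and no library stood apart, so they do not test calls that rest on A12 replicate 1. Pathway genes were matched by description, with spellings taken from the table (CEN-like for CENTRORADIALIS). Genes named are both LEAFY homologs, the partner class, up to 4 called genes per pathway class of lowest adjusted p and the 3 nearest profiles (1 called upstream gene is not reported here); RA3 was named as a marker, and Zm00004b039473, the class A examples and neighbouring genes were chosen after their values were seen. The LEAFY homologs and all lists were chosen with earlier results of these data known. Libraries are pools of separate plants, and the intervals printed come from the edgeR fit, so they include the spread between libraries.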

Additional observations from a re-analysis of the deposited data

How the results depend on the processing

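The adjusted p of Zm00004b006425 lay near the threshold and crossed it with total counts only (log2 fold change -0.92, edgeR adjusted p = 0.0427), without a low-count filter (-0.86, edgeR adjusted p = 0.0479) and with DESeq2 (-0.86, adjusted p = 0.00373); the cause was not tested. Leaving out 1 library gave -1.06 to -0.63 for Zm00004b006425, which passed without A12 replicate 1 or 2, and -1.01 to -0.43 for Zm00004b040210, which did not pass. Over all genes, 2242 were called by edgeR, 3488 by DESeq2 and 401 to 4446 with 1 library left out. Pathway calls numbered 23, and 9 to 26 with 1 library left out. Deviations of same-numbered libraries from their line means had correlations of -0.12, -0.01 and 0.01 across genes, and those of differently numbered libraries lay between -0.12 and 0.15. Deviations from a mean of 3 libraries depend on each other, so these values cannot decide whether the numbers mark pairs. With the replicate block, 967 genes and 22 pathway genes were called, and the adjusted p was 0.097 for Zm00004b006425 and 0.216 for Zm00004b040210. Left-out libraries moved the difference in log2 copy ratio between -0.21 and 0.01, and that of the summed level between -1.09 and -0.52. With 3 libraries per line, exact tests cannot go below 0.1.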

Other observations

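Values of the genes around each copy are given here as a description. Within 1 Mb to either side of Zm00004b006425, 44 other genes were tested, of which 2 rose and 4 fell, or 13.6% against 9.86% of all genes. Zm00004b006430, a WRKY35 match that lies 158563 bases away, rose to 131, 220 and 257 reads in A12, against 39, 29 and 32 in B46 (log2 fold change 2.66, SE 0.29, edgeR adjusted p = 0.00352). On the other side, Zm00004b006413, a match of rice Brevis radix-like 2, had a log2 fold change of -1.48 (edgeR adjusted p = 0.0449), and Zm00004b006412, a match of rice growth-regulating factor 3, one of -0.57 (edgeR adjusted p = 0.0161). On that side the nearest called gene was Zm00004b006420, a match of the human TPR and ankyrin repeat-containing protein 1 that lies 31709 bases away, at -0.58 (edgeR adjusted p = 0.0291). The calls of Zm00004b006413, Zm00004b006412 and Zm00004b006420 were lost in 6, 4 and 8 of 14 alternatives in that order, and that of Zm00004b006430 in 0. Nearer still, Zm00004b006421 at -0.52 (edgeR adjusted p = 0.164) and Zm00004b006422 at -0.36 (edgeR adjusted p = 0.521) were not called. The nearest tested gene with a Swiss-Prot match on the WRKY35 side, the ribosomal protein L12 match Zm00004b006426, had a log2 fold change of 0.15 (edgeR adjusted p = 0.503).

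Around Zm00004b040210, 42 other genes were tested within 1 Mb to either side, of which 1 rose and 0 fell by edgeR, or 2.38%. The nearest tested gene with a Swiss-Prot match, Zm00004b040209, a match of ubiquitin-conjugating enzyme 24 that lies 80244 bases away, had a log2 fold change of -0.03 (edgeR adjusted p = 0.888). A nearer tested gene without a description, 6473 bases away, stood at -0.49 and was not called (edgeR adjusted p = 0.219). The median log2 fold change of the 42 neighbours was -0.05. A match of Brevis radix-like 2 is found beside this copy too: Zm00004b040215 had 42, 146 and 81 reads in A12 and 299, 273 and 119 in B46 (log2 fold change -1.29, SE 0.50, edgeR adjusted p = 0.145). Both Brevis radix-like genes, like the LEAFY homologs, had their lowest count in A12 replicate 1. A match of growth-regulating factor 3 also lies beside both copies, and that on chromosome 10, Zm00004b040217, had a log2 fold change of 0.07 (edgeR adjusted p = 0.797), against -0.57 for that on chromosome 2. These pairs were picked out after their values were seen. Whether any of these neighbours share a haplotype difference between the lines was not tested.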
